A study of Homo sapiens with 11 samples.

Results

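The IFI genes described here are 6 human genes whose symbols record that interferon induces them: IFI6, IFI16, IFI27, IFI35, IFI44 and IFI44L. They were chosen by symbol from a deposited table of 58699 genes, by a rule that reads no values, and each of the 6 symbols matched 1 gene. The choice was made with earlier results of these data known. The cells were HCT116, an established human colorectal cancer line, transfected with a control siRNA that targets luciferase (siLuc) or with one that targets the RNA-binding protein Staufen1 (siStau1). Each was given the solvent DMSO or decitabine (DAC), a nucleoside that inhibits DNA methylation, at 500 nM for 5 days per the labels, which makes 4 groups, siLuc and siStau1 each with DMSO or DAC. Total RNA of 2 libraries per group was sequenced, all from the same line and all after transfection of an siRNA, and no untransfected cells were analysed here. The table gives the authors' FPKM (fragments per kilobase of transcript, scaled to the fragments of the library) as 1 value per gene and group, so neither the spread between the 2 libraries nor their depth is known here.

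Interferons of types I and III bind receptors on the cell surface, and the kinases JAK1 and TYK2 then signal to the nucleus. A complex that contains STAT2 and IRF9 binds the interferon-stimulated response element, a pair of GAAA blocks near the start of responsive genes. In cancer cells, inhibitors of DNA methylation are known to induce endogenous retroviral RNA and, through sensors of double-stranded RNA, an interferon response, and the series title places this study there. Among the 6 genes, IFI6 and IFI27 encode small hydrophobic proteins of 1 family, found at mitochondria and other membranes and linked to the control of cell death and viral replication. IFI35 encodes a leucine zipper protein that pairs with NMI. IFI44 and IFI44L are neighbouring related genes with antiviral and feedback roles, and IFI16 encodes a nuclear sensor of DNA that signals through STING.

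The upstream windows are shown first because the response element is what the group is known for. RefSeq promoters (GRCh38.p14) were found for all 6 genes, in 9 windows, and the 250 bases before each transcript start are used here. Capitals mark matches on either strand to the core of the response element, read as GAAA, any 2 bases and GAAA (the 2-base spacing), or to GAAANGAAA (the 1-base spacing).
IFI6, chr1:27672193-27672442, minus strand: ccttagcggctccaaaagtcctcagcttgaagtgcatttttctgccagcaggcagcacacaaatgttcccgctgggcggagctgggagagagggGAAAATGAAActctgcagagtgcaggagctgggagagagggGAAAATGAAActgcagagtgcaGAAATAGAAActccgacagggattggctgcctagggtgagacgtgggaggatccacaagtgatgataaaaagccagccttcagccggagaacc
IFI27, chr14:94110486-94110735, plus strand: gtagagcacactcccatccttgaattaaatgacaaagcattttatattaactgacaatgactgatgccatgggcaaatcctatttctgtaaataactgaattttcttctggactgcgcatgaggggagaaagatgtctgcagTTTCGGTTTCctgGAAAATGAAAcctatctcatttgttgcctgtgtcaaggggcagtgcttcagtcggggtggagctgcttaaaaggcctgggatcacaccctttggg
IFI35, chr17:43006534-43006783, plus strand: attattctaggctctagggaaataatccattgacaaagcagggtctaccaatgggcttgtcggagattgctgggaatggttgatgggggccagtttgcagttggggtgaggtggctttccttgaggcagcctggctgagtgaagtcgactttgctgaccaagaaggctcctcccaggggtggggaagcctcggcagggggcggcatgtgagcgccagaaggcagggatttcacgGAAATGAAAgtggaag
IFI44, chr1:78649539-78649788, plus strand: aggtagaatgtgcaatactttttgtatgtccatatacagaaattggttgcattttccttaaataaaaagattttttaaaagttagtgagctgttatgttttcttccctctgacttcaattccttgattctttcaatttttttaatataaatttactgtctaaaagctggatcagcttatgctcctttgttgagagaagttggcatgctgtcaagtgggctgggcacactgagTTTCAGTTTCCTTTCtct
IFI44L, chr1:78620198-78620447, plus strand: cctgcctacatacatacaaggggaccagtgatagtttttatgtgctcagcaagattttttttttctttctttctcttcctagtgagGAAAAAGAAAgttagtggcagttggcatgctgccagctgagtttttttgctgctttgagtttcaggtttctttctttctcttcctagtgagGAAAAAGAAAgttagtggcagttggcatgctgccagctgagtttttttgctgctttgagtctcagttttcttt
IFI16, the second of 2 windows, chr1:159009657-159009906, plus strand: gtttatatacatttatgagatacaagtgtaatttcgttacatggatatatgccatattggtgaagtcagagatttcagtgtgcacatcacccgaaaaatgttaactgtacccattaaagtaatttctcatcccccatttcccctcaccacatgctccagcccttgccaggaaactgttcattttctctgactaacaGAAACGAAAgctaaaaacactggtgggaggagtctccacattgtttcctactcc

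The windows of IFI27, IFI44L and IFI16 lie inside the gene spans of GENCODE, which holds longer transcripts of these genes, and those of IFI6 and IFI35 overlap the edge of the span. The 2-base spacing was found in 4 of the 6 genes, with 3 matches in IFI6, 2 in IFI27, 2 in IFI44L and 1 in IFI44. Of 34786 different RefSeq windows of this length, 3.02% hold a match and 0.227% hold 2 or more. The 1-base spacing, searched after the letters had been seen, was found in IFI35, IFI44 and the second IFI16 window, against 2.69% of all windows. In IFI44 it overlaps the match to the 2-base spacing. Either spacing was thus found in all 6 genes, against 5.48% of windows, and the first IFI16 window held neither. The gamma-activated site TTCNNNGAA, searched on both strands, was found in IFI27 and IFI35 and in 6.57% of all windows. In IFI27 it overlaps both matches to the 2-base spacing, and in IFI35 it overlaps the match to the 1-base spacing.

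A pair of windows repeats itself. The IFI44L window holds 1 stretch of 85 bases at 2 places, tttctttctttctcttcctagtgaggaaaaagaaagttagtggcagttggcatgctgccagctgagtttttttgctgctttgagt, and each copy carries 1 of its 2 matches. Only 0.181% of windows have an exact repeat at least this long. In IFI6 a stretch of 29 bases, ggagctgggagagaggggaaaatgaaact, also stands at 2 places, each with 1 of its 3 matches, and 1.04% of windows repeat at this length. IFI44 and IFI44L share the 13 bases agttggcatgctg, the longest stretch shared by any pair among the first windows of the 6 genes. The windows differ in CG dinucleotides, the sites of DNA methylation. Both IFI44 windows, that of IFI44L and the first of IFI16 hold 0, and those of IFI6 and IFI35 hold 6 each, with a median of 11 over all RefSeq windows. For IFI6 and IFI35, 38.2% of all windows hold fewer, so these lie below the median but well within the range. Methylation was not analysed here, and a match of letters does not show that a factor binds.

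**Figure D1:**
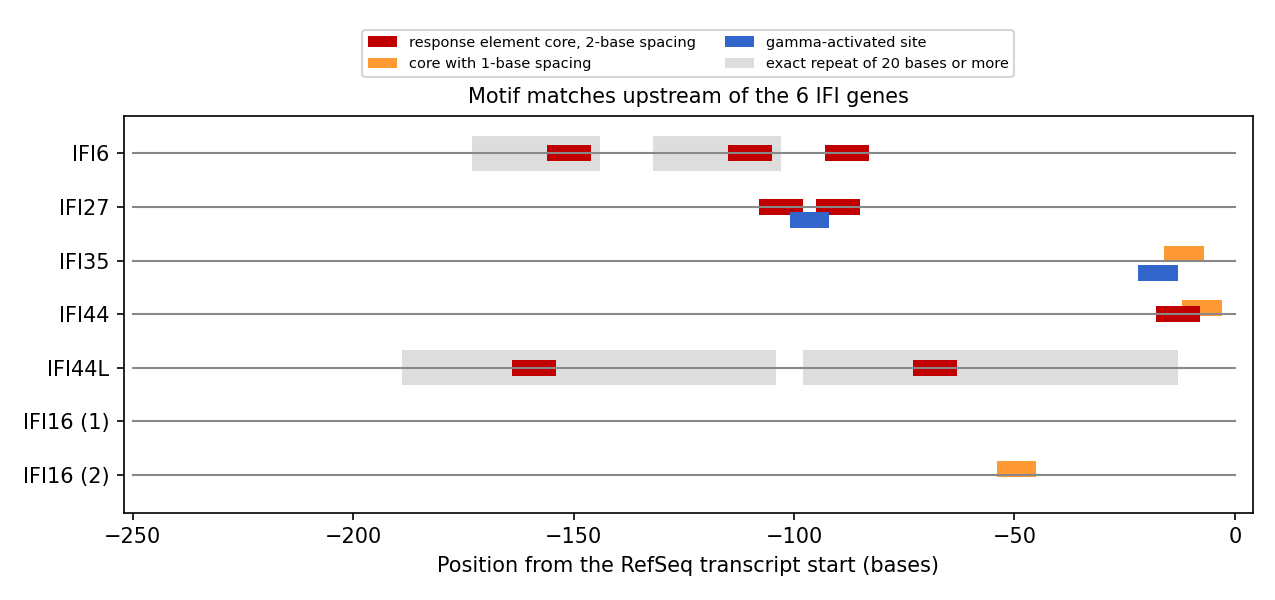
Positions of motif matches in the 250 bases before the RefSeq start of each gene, with 0 at the start and IFI16 shown with its 2 windows. Red boxes are the 2-base spacing of the response element, orange boxes the 1-base spacing, blue boxes TTCNNNGAA and grey blocks the exact repeats of 29 bases in IFI6 and 85 bases in IFI44L. A reader should see that the red boxes of IFI44L and 2 of the 3 in IFI6 lie inside repeated blocks.

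Calls of a difference are those of the authors' deposited table, which has the layout of the program Cuffdiff. A gene is called where its q-value, the p-value adjusted over all tests of the table, is under 0.05. Ratios on the log2 scale were computed here from FPKM with a pseudocount of 0.1. The 2 siLuc groups serve in several comparisons, as do the 2 siStau1 groups, so the comparisons below are not independent. The target of the siRNA was measured first, and STAU1 stood at 35.5 FPKM with DMSO and 33.7 with DAC in siLuc cells, and at 30.0 and 27.1 in siStau1 cells. The authors' deposited table called neither difference between siStau1 and siLuc (q = 0.767 with DMSO, q = 0.685 with DAC). Directions below therefore refer to the groups labelled siStau1. In bulk RNA, fewer cells with a high level and less RNA per cell cannot be told apart.

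The levels covered a wide range. IFI6 (ENSG00000126709.14, chromosome 1, 27666061 to 27672218, GRCh38) stood at 752 FPKM with DMSO and 1669 with DAC in siLuc cells, and at 150 and 675 in siStau1 cells. By FPKM it ranked 142 and 59 among protein-coding genes in siLuc cells, and 584 and 131 in siStau1 cells. It was thus highest in siLuc with DAC and lowest in siStau1 with DMSO, and the levels between, 752 and 675 FPKM, were not called different.

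IFI27 (ENSG00000165949.12, chromosome 14, 94104836 to 94116698) stood at 402 FPKM with DMSO and 1138 with DAC in siLuc cells, and at 37.2 and 592 in siStau1 cells. The ratio of its highest to its lowest group, 30.6, was the largest of the 6 genes. IFI35 (ENSG00000068079.7, chromosome 17, 43006725 to 43014456) stood at 68.7 and 234 FPKM in siLuc cells and at 9.97 and 92.1 in siStau1 cells. Both genes were highest in siLuc with DAC, then in siStau1 with DAC, then in siLuc with DMSO, and lowest in siStau1 with DMSO. Each step of that order was called, except that between siStau1 with DAC and siLuc with DMSO.

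IFI44L (ENSG00000137959.15, chromosome 1, 78619922 to 78646145) stood at 17.2 FPKM with DMSO and 21.5 with DAC in siLuc cells, and at 1.19 and 11.1 in siStau1 cells. Its 3 higher groups were not called different from their neighbours in order, and only siStau1 with DMSO stood apart. IFI44 (ENSG00000137965.10, chromosome 1, 78649796 to 78664078) starts 3651 bases after the end of IFI44L on the same strand. It stood at 46.1 FPKM with DMSO and 18.9 with DAC in siLuc cells, and at 13.7 and 26.1 in siStau1 cells. It was the only one of the 6 genes that was highest in siLuc with DMSO. Its highest and lowest groups differed by a ratio of 3.36, and no step between neighbours in its order was called.

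IFI16 (ENSG00000163565.18, chromosome 1, 158999968 to 159055155) was barely detected, with 0.103 FPKM for DMSO and 0.803 for DAC in siLuc cells, and 0.424 and 1.16 in siStau1 cells. Its rank among protein-coding genes lay between 11607 and 13412. Its order of groups, highest in siStau1 with DAC and lowest in siLuc with DMSO, was that of none of the other 5 genes. No tested step in it was called, and the lowest step, between siStau1 with DMSO and siLuc with DMSO, was not tested.

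**Figure D2:**
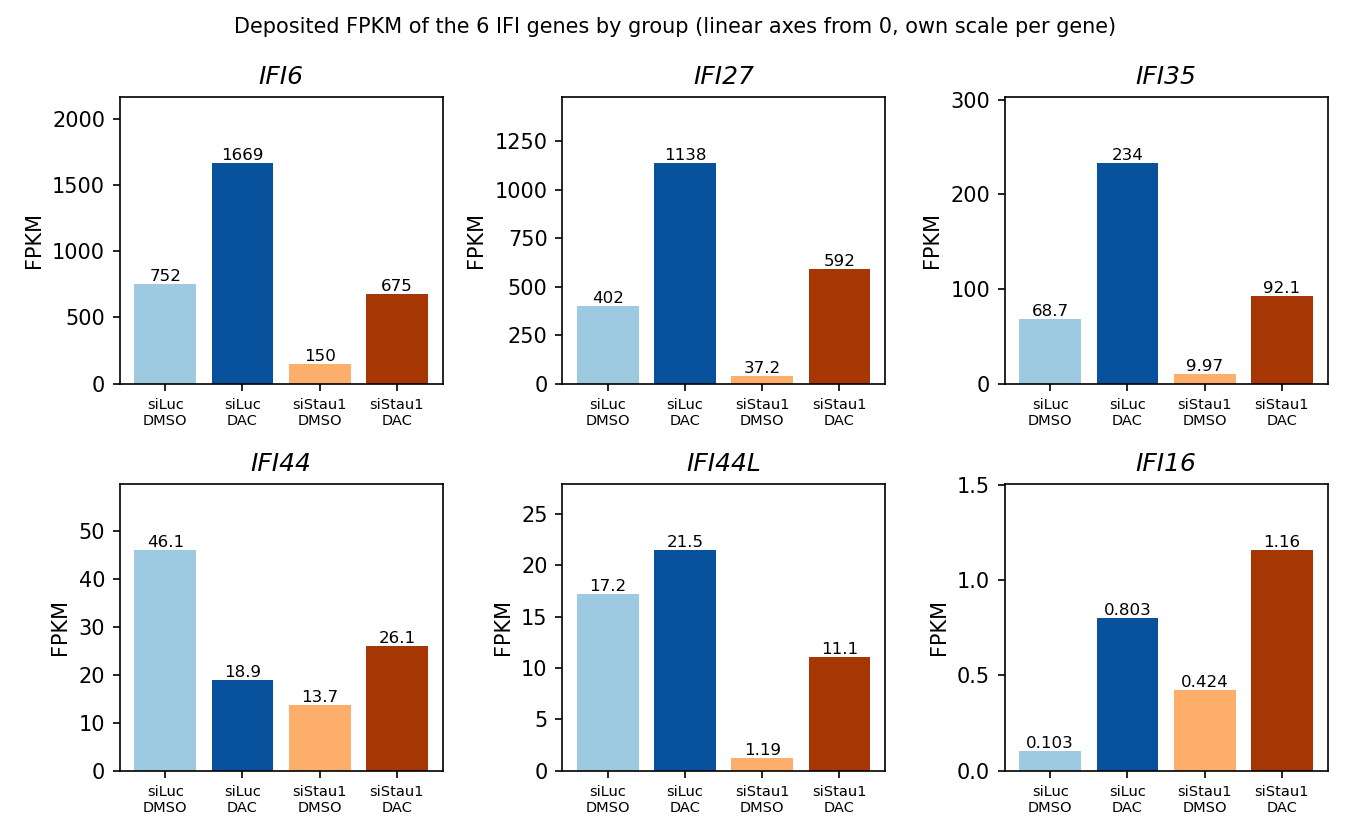
Deposited FPKM of each gene in the 4 groups, on linear axes that start at 0 with a scale per gene; each bar is 1 pooled value of 2 libraries and has no error bar. In IFI6, IFI27, IFI35 and IFI44L the siStau1 DMSO bar is the lowest and the siLuc DAC bar the highest, while IFI44 is highest in siLuc DMSO at 46.1 FPKM.

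Without DAC, the 5 genes that were tested were all lower in the group labelled siStau1. All 5 of 5 tested genes fell in the authors' deposited table, against 0.799% of all tested genes called in either direction and 0.466% called lower. IFI44L fell from 17.2 to 1.19 FPKM, a 14.4-fold difference, and IFI27 fell from 402 to 37.2 FPKM, or 10.8-fold. IFI35 fell 6.89-fold, from 68.7 to 9.97 FPKM, and IFI6 fell 5.02-fold, from 752 to 150 FPKM. Each had q = 0.00162, the smallest value of the authors' deposited table. IFI44 fell by less, from 46.1 to 13.7 FPKM or 3.36-fold, with q = 0.00825 by the authors' deposited table. IFI16 was not tested there and had 0.103 and 0.424 FPKM. Over the 6 genes the log2 ratio had a median of −2.55, against −0.02 over all tested genes. With p-values of the authors' deposited table adjusted within this comparison alone, 4 of the 5 kept their call, where 0.208% of tested genes passed, and IFI44 lost it, at an adjusted p of 0.116.

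Under DAC, IFI6, IFI27 and IFI35 were again lower in the group labelled siStau1, by smaller ratios. IFI35 fell from 234 to 92.1 FPKM, or 2.54-fold, and IFI6 from 1669 to 675 FPKM, or 2.47-fold, both with q = 0.00162 by the authors' deposited table. IFI27 fell 1.92-fold, from 1138 to 592 FPKM, with q = 0.0498 by the authors' deposited table, at the edge of the limit. These 3 of 6 stand against 0.904% of all tested genes called and 0.469% called lower. IFI44L had a ratio of nearly the same size as IFI27, from 21.5 to 11.1 FPKM, and was not called, with q = 0.392 by the authors' deposited table. IFI44 was at 18.9 FPKM in siLuc and 26.1 in siStau1, and IFI16 at 0.803 and 1.16 (q = 0.591 and 0.781 in the authors' deposited table). The median log2 ratio was −0.95, against −0.14 over all tested genes. It was −0.84 after subtraction of −0.11, the median of the genes that reached 1 FPKM in both. Adjusted within this comparison alone, 0 of the 6 genes passed in the authors' deposited Cuffdiff table, against 3 with an unadjusted p under 0.05. The same adjustment passed 0% of all tested genes. IFI6 and IFI35 had the smallest p of the authors' deposited Cuffdiff table, 5e-05, which became 0.0719 after this adjustment. No gene could therefore pass, and the loss of these calls says nothing about single genes.

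DAC raised IFI27, IFI35 and IFI6 in siLuc cells. IFI35 rose 3.40-fold, from 68.7 to 234 FPKM, IFI27 rose 2.83-fold, from 402 to 1138 FPKM, and IFI6 rose 2.22-fold, from 752 to 1669 FPKM. Their q-values in the authors' deposited table were 0.00525, 0.00162 and 0.0109. These 3 of 6 compare with 13.5% of all tested genes called and 8.71% called higher. IFI44L was 17.2 FPKM with DMSO and 21.5 with DAC, with q = 0.814 by the authors' deposited table. IFI44 was at 46.1 FPKM with DMSO and 18.9 with DAC, the opposite direction, and stood just outside the limit with q = 0.0512 by the authors' deposited table. Adjusted within this comparison alone it passed as lower, at an adjusted p of 0.0287, as 1 of 4 members and of 16.8% of tested genes that passed in either direction. IFI16 had 0.103 and 0.803 FPKM, with q = 0.570 by the authors' deposited table.

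In siStau1 cells DAC raised 4 of the 6 genes, from the low levels of siStau1 DMSO. IFI27 rose 15.9-fold, from 37.2 to 592 FPKM, IFI44L 9.29-fold, from 1.19 to 11.1 FPKM, IFI35 9.24-fold, from 9.97 to 92.1 FPKM, and IFI6 4.51-fold, from 150 to 675 FPKM. All 4 had q = 0.00162 by the authors' deposited table, where 7.46% of all tested genes were called and 4.56% called higher. IFI44 had 13.7 FPKM with DMSO and 26.1 with DAC, and IFI16 had 0.424 and 1.16, with q-values of 0.255 and 0.697 in the authors' deposited table. Over the 6 genes the log2 ratio had a median of 2.64 here and 1.33 in siLuc, against 0.11 and 0.23 over all tested genes.

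**Figure D3:**
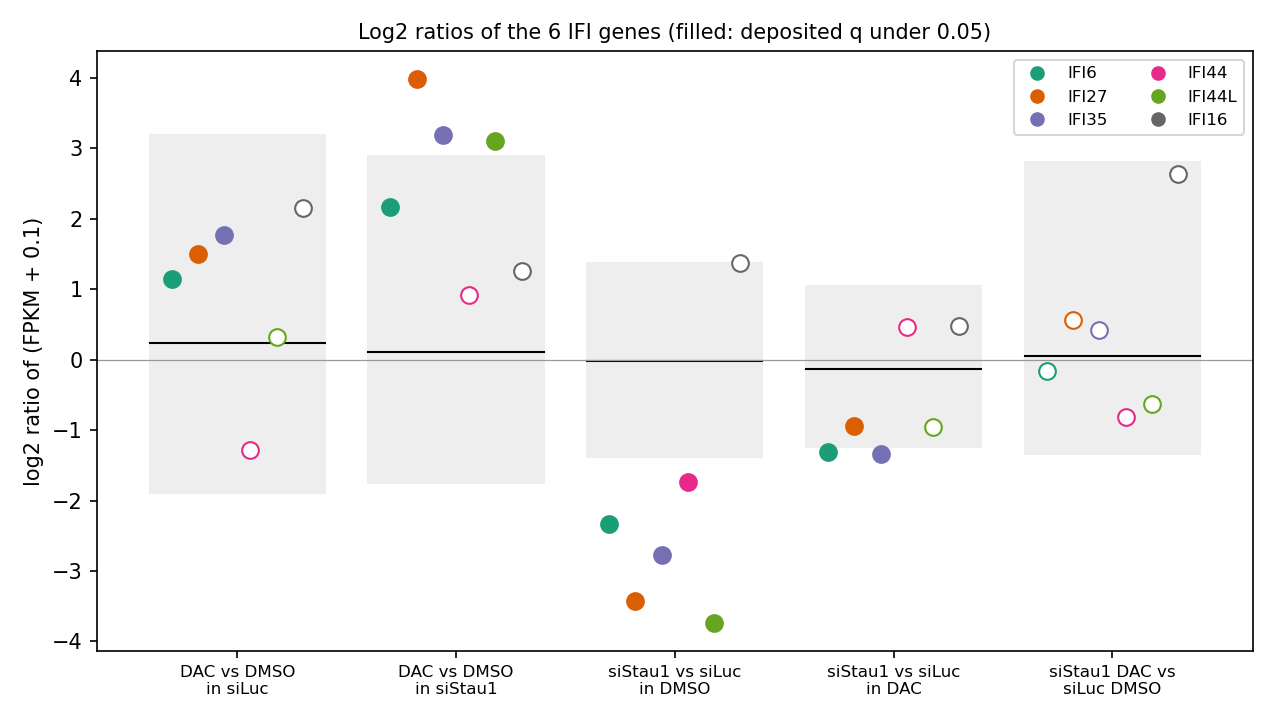
Log2 ratios of (FPKM + 0.1) for the 6 genes in 5 comparisons of the groups. Filled points were called in the authors' deposited table, open points were not; grey boxes span the 5th to 95th percentile of all tested genes and black lines their median. The 5 tested genes lie below the grey box for siStau1 against siLuc in DMSO, and no gene is filled for siStau1 DAC against siLuc DMSO.

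The DAC log2 ratio was larger in siStau1 than in siLuc for 5 of the 6 genes. The difference, siStau1 minus siLuc, was 2.79 for IFI44L, 2.49 for IFI27, 2.21 for IFI44, 1.43 for IFI35 and 1.02 for IFI6, and −0.89 for IFI16. Its median was 1.82, against −0.02 over the 15956 genes tested in both arms. The same number is the siStau1 over siLuc log2 ratio with DAC minus that with DMSO, which for IFI44 went from −1.74 to 0.46 and for IFI16 from 1.37 to 0.48. This difference could not be tested, since it needs values per library.

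Levels with both siStau1 and DAC lay on both sides of those in siLuc with DMSO. Between siStau1 DAC and siLuc DMSO the authors' deposited table, in Cuffdiff's layout, called 0 of the 6 genes, and 0 had an unadjusted p under 0.05, while 4.98% of all tested genes were called. IFI6 had 675 against 752 FPKM, IFI27 592 against 402, IFI35 92.1 against 68.7, IFI44L 11.1 against 17.2 and IFI44 26.1 against 46.1. Their ratios lay between 0.566 for IFI44 and 1.47 for IFI27, with q-values from 0.310 to 0.865 in the authors' deposited table. IFI16 had 1.16 against 0.103 FPKM, a log2 ratio of 2.64 that was 0.97 with a pseudocount of 1, with q = 0.563 by the authors' deposited table. A q-value above the limit does not show that the levels were equal. The widest gap for IFI27, IFI35, IFI6 and IFI44L was between siLuc DAC and siStau1 DMSO, where all 6 genes were lower in siStau1 DMSO and 4 of them were called in the authors' deposited table, against 16.7% of all tested genes called and 9.37% called lower.

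Ratios in this table followed the GC content of transcripts, and the 6 genes lie on both sides of that scale. Among 20 bins of GC content, the median log2 ratio of a bin rose with GC from −0.95 to 1.20 for DAC in siLuc cells and from −0.72 to 0.86 for DAC in siStau1 cells. For siStau1 against siLuc it ran the opposite way, from 0.42 in the bin of lowest GC to −0.24 in that of highest GC with DMSO, and from 0.61 to −0.64 with DAC. What sets these trends was not tested. The longest transcripts of IFI44L, IFI16 and IFI44 have 37.8%, 38.6% and 39.1% GC, and those of IFI27, IFI6 and IFI35 have 50.5%, 56.1% and 58.8%. For DAC in siLuc, the median log2 ratio of protein-coding genes in the same GC bin was −0.63 for IFI44 and −0.74 for IFI44L, and 0.16 for IFI27, 0.55 for IFI6 and 0.79 for IFI35. After centring within these bins the DAC ratio in siLuc was −0.65 for IFI44 (from −1.28), 1.07 for IFI44L (from 0.32), 0.97 for IFI35 (from 1.76), 0.60 for IFI6 (from 1.15) and 1.34 for IFI27 (from 1.50). The value of IFI44 remained below 0 and that of IFI44L became larger than that of IFI35. For siStau1 against siLuc without DAC the centred ratios were −4.14 for IFI44L, −3.30 for IFI27, −2.49 for IFI35, −2.09 for IFI44 and −2.06 for IFI6, so none of these 5 changed direction. Under DAC they were −0.93 for IFI6, −0.87 for IFI35, −0.80 for IFI27, −1.44 for IFI44L and 0.08 for IFI44 (from 0.46). For DAC in siStau1 cells they were 3.82 for IFI27, 3.73 for IFI44L, 2.56 for IFI35, 1.61 for IFI6 and 1.43 for IFI44. The difference between the arms moved little, to between 1.01 for IFI6 and 2.66 for IFI44L among the same 5 genes.

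**Figure D4:**
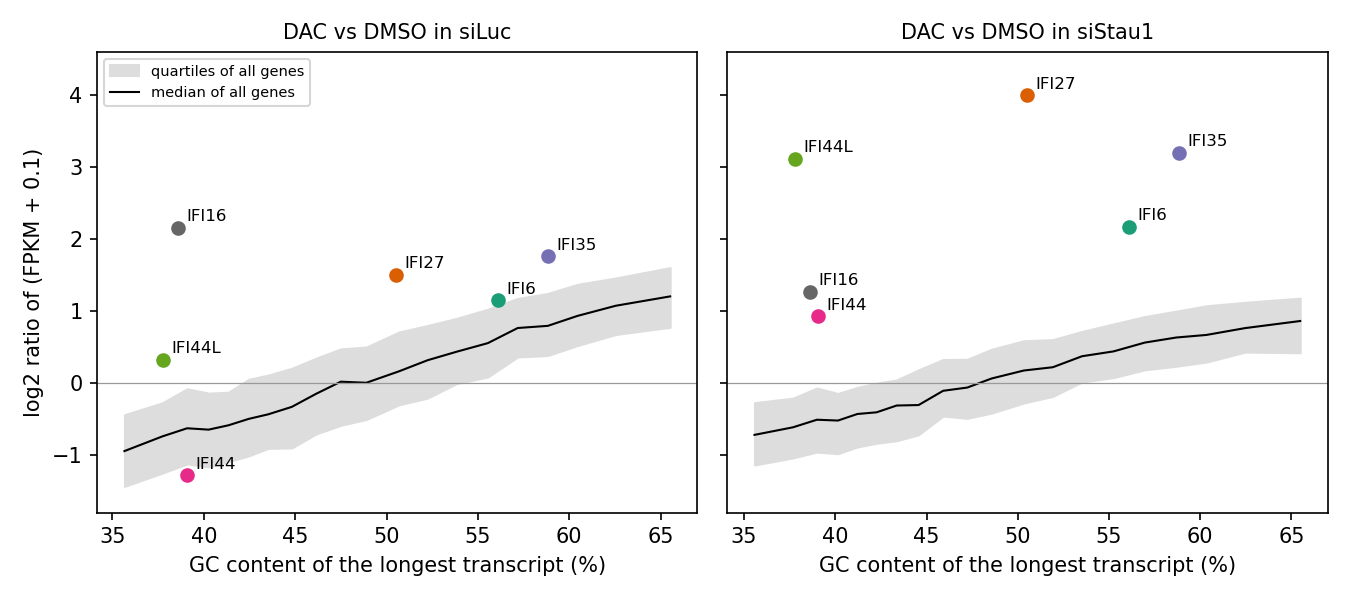
DAC log2 ratios of the 6 genes against the GC content of their longest transcript, in siLuc (left) and siStau1 (right). The black line and grey band are the median and quartiles of protein-coding genes that reached 1 FPKM in both, in 20 bins of GC content. IFI44 lies at −1.28 in siLuc, below the median of −0.63 in its bin, and at 0.92 in siStau1, above it.

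The neighbours of the 6 genes were examined at each locus, taking the nearest protein-coding gene on each side. IFI27L1 ends 990 bases before IFI27 and belongs to its family. It stood at 16.9 FPKM with DMSO and 21.7 with DAC in siLuc cells, and at 7.82 and 15.3 in siStau1 cells. IFI27L2, on the other side, stood at 18.5 and 43.2 FPKM in siLuc cells and at 16.9 and 35.2 in siStau1 cells. Neither was called in the authors' deposited table in the 4 comparisons of drug or siRNA, and the smallest q there was 0.0919, of IFI27L2 with DAC in siLuc cells. Their levels were thus well below that of IFI27, except in siStau1 DMSO, where IFI27 itself was at 37.2 FPKM.

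VAT1 lies 149 bases beyond the end of IFI35 on the opposite strand and stood at 39.9 FPKM with DMSO and 77.6 with DAC in siLuc cells, and at 31.5 and 63.2 in siStau1 cells, with no call in the authors' deposited table. RPL27, a ribosomal protein gene before IFI35, stood at 1723 FPKM with DMSO and 835 with DAC in siLuc cells, and at 1920 and 1060 in siStau1 cells. It fell with DAC in siLuc cells, opposite to IFI35 (q = 0.0149 in the authors' deposited table). IFI6 lies between FGR, at most 0.124 FPKM in any group, and FAM76A, with 4.71 to 6.96 FPKM and no call in the authors' deposited table. The antisense gene AL445490.1 overlaps IFI6 and was listed at 0 in 3 groups and at 0.0756 FPKM in siStau1 DAC, far below IFI6. Beyond the IFI44L and IFI44 pair, PTGFR had at most 0.0358 FPKM and ADGRL4 at most 0.00998. IFI16 lies between its relatives PYHIN1, listed at 0 in all 4 groups, and AIM2, a cytosolic DNA sensor, listed at 0 with DMSO and at 0.248 FPKM in siLuc and 0.217 in siStau1 cells with DAC.

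Genes with the pattern nearest to each of the 6 were found by the Euclidean distance between log2(FPKM + 0.1) profiles over the 4 groups, each centred on its mean, among genes with a mean of at least 1 FPKM. With 4 points per gene this is a description only. Nearest to IFI6 were PSMB9, a subunit of the immunoproteasome, at a distance of 0.118, RHEBL1 and the pseudogene AC023157.1. PSMB9 stood at 45.0 FPKM with DMSO and 92.3 with DAC in siLuc cells, and at 8.54 and 36.2 in siStau1 cells. Nearest to IFI27 were LGALS9, which encodes galectin-9, at 0.343, and the transcription factors BATF2 and ETV7. Nearest to IFI35 were BISPR, a noncoding RNA beside BST2, at 0.189, CFB, which encodes complement factor B, and ETV7. Nearest to IFI44L was BST2, which encodes the virus-tethering protein tetherin, at 0.379, then SNORD89 and LINC01764. Nearest to IFI44 were the ribosomal protein pseudogenes RPL36AP45 and RPS4XP13, at 0.119 and 0.235, and CAPN12. These were at low levels, from 0.489 to 2.18 FPKM over the groups. Of the other interferon-stimulated genes listed below, IFIT1, PLSCR1 and DDX60 shared the order of groups of IFI44, and the rest did not. Nearest to IFI16 were SLPI, at 0.273, AP002807.1 and IDUA.

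Among the 6 genes themselves the closest profiles were those of IFI27 and IFI35, at 0.606, and of IFI6 and IFI35, at 0.878. IFI44 and IFI44L, although neighbours, were 2.57 apart. IFI16 was at least 2.90 from every other member.

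The rest of the pathway was read from lists chosen with earlier results of these data known. All 4 interferon ligand genes were lower in the groups labelled siStau1, whatever the drug. Of these, 1 was called lower with DMSO by the authors' deposited table, where 0.466% of all tested genes were, and 3 with DAC, where 0.469% were. With DMSO, IFNB1 went from 2.63 FPKM to a value listed at 0. With DAC, IFNL1 fell from 15.5 to 2.71 FPKM, IFNL3 from 12.9 to 1.83 and IFNL2 from 10.4 to 2.17, and IFNL2 and IFNL3 are near-identical copies whose values are uncertain. Adjusted within that comparison alone, where no gene could pass, 0 of the 4 passed, as did 0% of all tested genes. An unadjusted p under 0.05 was found for 3 of the 4 in the authors' deposited Cuffdiff table.

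With DAC in siLuc cells 3 of the 4 ligand genes were higher and 1 was called in the authors' deposited table, against 8.71% of all tested genes called higher. IFNB1 went the other way, with 2.63 FPKM with DMSO and 1.27 with DAC, and was not called. IFNL1 rose from 3.97 to 15.5 FPKM. IFNL2 was at 1.99 FPKM with DMSO and 10.4 with DAC, and IFNL3 at 3.35 and 12.9 (q = 0.0700 and 0.0646 in the authors' deposited table). Adjusted within the comparison alone, these 3 IFNL genes passed, beside 16.8% of all tested genes that passed in either direction. In siStau1 cells all 4 ligand genes were higher with DAC. There 3 were tested and 0 were called in the authors' deposited table, beside 4.56% of all tested genes called higher.

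Of 14 genes for receptors and signalling, 10 were higher with DAC in siLuc cells and 3 of them were called in the authors' deposited table, beside 8.71% of all tested genes called higher. Their median log2 ratio was 0.55, against 0.23 over all tested genes. IRF7, a transcription factor that amplifies interferon production, rose from 11.8 to 78.5 FPKM, SOCS3, a feedback inhibitor, from 6.77 to 18.2, and STAT2 from 22.6 to 52.8. In siStau1 cells 13 of 14 were higher with DAC and 3 were called, beside 4.56% of all tested genes. These were IRF7, which rose from 6.11 to 32.9 FPKM, USP18, which removes ISG15 and restrains the receptor, from 6.78 to 31.4, and STAT2 from 13.3 to 32.2.

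Between siStau1 and siLuc, 11 of the 14 were lower with DMSO and 12 with DAC, and 1 was called each time in the authors' deposited table. Of all tested genes, 0.466% were called lower with DMSO and 0.469% with DAC. The median log2 ratios of the 14 were −0.47 and −0.48, against −0.02 and −0.14 over all tested genes. With DMSO the called gene was USP18, which fell from 28.3 to 6.78 FPKM, and with DAC it was IRF7, which fell from 78.5 to 32.9. Between siStau1 DAC and siLuc DMSO, IRF7 was called higher in the authors' deposited table, beside 4.98% of all tested genes called.

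All 30 other interferon-stimulated genes were lower in siStau1 than in siLuc with DMSO, with a median log2 ratio of −1.54 against −0.02 over all tested genes. Of these, 16 were called lower in the authors' deposited table, beside 0.466% of all tested genes. IFITM1, which blocks viral entry, fell from 191 to 8.80 FPKM, BST2 from 116 to 11.3 and RSAD2, which encodes viperin, from 10.1 to 1.00. Adjusted within this comparison alone, 6 of the 16 passed, beside 0.208% of all tested genes, with IFITM1 and BST2 among them. RSAD2 lost its call, at an adjusted p of 0.387.

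Between siStau1 and siLuc with DAC, 22 of the 30 were lower, with a median of −0.49 against −0.14 over all tested genes. Calls in the authors' deposited table numbered 5 lower, beside 0.469% of all tested genes, and 1 higher. OASL fell from 239 to 84.0 FPKM and IFITM1 from 562 to 239, and SAMD9 rose from 11.4 to 30.0. Adjusted within this comparison alone, where no gene could pass, 0 of the 30 passed. An unadjusted p under 0.05 was found for 8 of the 30 in the authors' deposited Cuffdiff table.

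With DAC in siLuc cells 22 of the 30 were higher, with a median of 0.68 against 0.23 over all tested genes. Calls in the authors' deposited table numbered 8 higher, beside 8.71% of all tested genes, and 1 lower. In siStau1 cells all 30 were higher with DAC, with a median of 2.02 against 0.11, and 16 were called, beside 4.56% of all tested genes. MX1, a GTPase that blocks viruses, rose with DAC from 3.74 to 266 FPKM in control and from 2.08 to 118 FPKM in siStau1 cells. In the same cells OAS2, an activator of RNase L, rose from 1.61 to 15.8 and from 0.0735 to 10.7 FPKM. MX2 rose from 2.93 to 19.8 FPKM in siLuc cells, and IFITM1 from 8.80 to 239 in siStau1 cells. Between siStau1 DAC and siLuc DMSO, 3 of these 30 were called higher in the authors' deposited table, beside 4.98% of all tested genes called: MX1 (118 against 3.74 FPKM), MX2 (13.9 against 2.93) and XAF1 (10.1 against 2.57).

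Of 8 relatives and partners of the 6 genes, 5 were tested in each of the 4 comparisons of drug or siRNA. Only IFI30, a lysosomal reductase with an IFI symbol, was called in the authors' deposited table: it rose with DAC from 55.6 to 147 FPKM in siLuc cells and from 41.1 to 108 FPKM in siStau1 cells. Of all tested genes, 8.71% and 4.56% were called higher there, so a single call among 5 tested genes says little about this list. NMI, the partner of IFI35, stood at 21.4 FPKM with DMSO and 12.9 with DAC in siLuc cells, and at 11.8 and 16.0 in siStau1 cells. That order is unlike that of IFI35 and the same as that of IFI44, and NMI had no call. TMEM173, which encodes STING, stood at 6.42 and 11.1 FPKM in siLuc cells and at 3.89 and 7.56 in siStau1 cells, and the IFI16 relative MNDA was listed at 0 in all 4 groups.

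Markers of the labelled tissue were present: of 7 colon epithelial markers, all but VIL1 had at least 1 FPKM in every group, with summed levels of 2601 FPKM with DMSO and 8198 with DAC in siLuc cells, and of 2149 and 5936 in siStau1 cells. Most of these sums came from the keratins KRT8, KRT18 and KRT19. EPCAM went the other way, with 259 FPKM with DMSO and 117 with DAC in siLuc cells (q = 0.0157 in the authors' deposited table), and 338 and 179 in siStau1 cells. CDX2 had 7.31 and 7.11 FPKM in siLuc cells, and 2.76 and 7.47 in siStau1 cells. Of 5 leukocyte markers, 4 were under 1 FPKM in every group, and PTPRC, the pan-leukocyte marker, was listed at 0 in both DMSO groups. With DAC, PTPRC was at 0.174 FPKM in siLuc cells and 0.820 in siStau1 cells. In the latter it was called higher with DAC (q = 0.00162 in the authors' deposited table), beside 4.56% of all tested genes. The sum of the 5 markers moved with DAC, from 1.73 to 17.8 FPKM in siLuc cells and from 0.777 to 8.02 in siStau1 cells, most of it CD68. The 5 fibroblast and endothelial markers summed to 1.73 FPKM with DMSO and 10.7 with DAC in siLuc cells, and to 1.12 and 7.54 in siStau1 cells, most of it COL1A1. In the authors' deposited table PECAM1 was called higher with DAC in siLuc cells, beside 8.71% of all tested genes. COL1A1 and VWF were called higher in siStau1 cells, beside 4.56%. The order of these 3 sums over the groups is that of IFI27 and IFI35, and also that of the summed FPKM of all genes, which was 1129076 with DMSO and 1793611 with DAC in siLuc cells, and 967545 and 1491061 in siStau1 cells. Their part in the result was not tested.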

How the data were processed

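RNA of 8 total RNA libraries in 4 groups was analysed. Per the file headers, the deposited FPKM values and p-values and q-values stand in Cuffdiff's layout, 1 FPKM value per gene and group. The submitters' processing notes name HISAT2 2.1.0, Cuffdiff 2.2.1, Cuffnorm 2.2.1 and hg38, without roles. How strand and near-identical copies were counted is not given in the sources used here. The deposited q-value was recomputed as the Benjamini-Hochberg value over the 102180 tests in its 6 comparisons and differed from it by at most 5.27e-07.

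With 1 value per group no fit could be made here, and the authors' calls were used. The 2 libraries of a group are not said to come from separate cultures. Gene positions, biotypes, transcript GC content and neighbours came from GENCODE release 29, which holds all 58699 identifiers. FPKM of a gene was the same in every comparison, apart from 1 gene that is no member. Functions for adjustment, GC centring and motif search were tested on simulated data. Promoter windows were cut to the 250 bases before the start, where 300 had been planned. Python 3.11.15 and pandas 2.3.3 were used. The 3 J2 libraries hold repeat elements without genes and were not used here, and protein sequences were not used here.

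The members and lists were chosen with earlier results of these data known. Named from each list were the 3 called genes with the largest log2 ratio per comparison and at least 1 FPKM in 1 group, and STAU1, all neighbours and the 3 nearest patterns per member, and others after their values were seen. Alternatives were pseudocounts of 1 and 0.01, a q-value limit of 0.01, adjustment within a comparison, centring on the median of all genes or within 20 GC bins, a minimum of 1 FPKM, leaving out each member and, chosen after seeing the data, another motif spacing and adjustment within a comparison for the lists.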

Additional observations from a re-analysis of the deposited data

Results flagged for a closer look

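The DAC effect on IFI44 had opposite signs in the 2 siRNA arms. Its log2 ratio of DAC over DMSO was −1.28 in siLuc and 0.92 in siStau1, a difference of 2.21, which stands out because no other of the 6 genes changed sign. In the authors' deposited table neither change was called, with q-values of 0.0512 and 0.255, and the difference was not tested. After centring within GC bins the ratios were −0.65 and 1.43.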

How the results depend on the processing

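No paired analysis was possible because the table pools the 2 libraries of each group, and for the same reason no library could be left out. Values were taken as moved where they changed by over 1.5-fold, since no spread between libraries exists. The 3 calls for siStau1 under DAC became 0 when adjusted within that comparison, without the other 5 comparisons. There the smallest p of the authors' deposited Cuffdiff table, 5e-05, became 0.0719, so no gene could pass. For siStau1 DAC against siLuc DMSO the median log2 ratio of 0.13 turned to −0.13 after GC centring and to −0.16 over the 5 members with at least 1 FPKM in both groups; with each member left out it ranged from −0.16 to 0.42. With each member left out, the other medians ranged from 1.15 to 1.50 (DAC in siLuc), 2.17 to 3.11 (DAC in siStau1), −2.77 to −2.33 (siStau1 in DMSO) and −0.95 to −0.94 (siStau1 in DAC). None of 138 values of single genes under other pseudocounts or centrings changed sign. IFI16, at about 1 FPKM or less, moved most with the pseudocount: its DAC ratio in siLuc was 2.15 with 0.1, 0.71 with 1 and 2.85 with 0.01. IFI44L, at 1.19 FPKM in siStau1 DMSO, moved too. With a pseudocount of 1 its siStau1 over siLuc log2 ratio with DMSO was −3.05, against −3.40 for IFI27. Its DAC ratio in siStau1 cells was then 2.46, against 3.09 for IFI35. Its difference between the arms was 2.15, against 2.46 for IFI27. The depth is unknown, so no limit of detection can be given.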
